A study of Homo sapiens with 9 samples.

Results

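SOX9 and CD24 are a pair of genes used as markers of stem-like tumour cells, and they are described here across 3 transfection groups of BT-549, an established human cell line from a breast carcinoma of the triple-negative type (no estrogen receptor, no progesterone receptor, no amplified HER2). They are 2 of the 14884 genes tested, each read by 1 feature of the array. Both genes were selected on their measured log2 signals, which read low in the mimic arrays in earlier results of the same data, so their own differences are given as a description with no p-value. The mimic group received a synthetic mature miR-150-5p at 50 nM, the negative control group an unspecific small RNA at 50 nM, and the mock group the lipid reagent alone, with 3 arrays in each. All 9 samples were BT-549 cells harvested at 72 h, the medium having been replaced at 24 h, and each group is thus a model in 1 cell line at 1 time. The comparisons ask how far the mature microRNA differs from this unspecific small RNA and from the lipid alone. They also ask how far the unspecific small RNA differs from the lipid alone. With 1 such RNA, effects of its own sequence cannot be told apart from those of small RNA in general.

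SOX9 encodes a transcription factor with an HMG box, a fold that bends DNA, and is known for directing cartilage formation, testis development and the upkeep of progenitor cells in several epithelia. In the mammary gland it is known to act together with SNAI2 in stem cells. CD24 encodes a short, heavily glycosylated protein that is held on the outer cell membrane by a glycosylphosphatidylinositol (GPI) lipid anchor, binds P-selectin, and engages the receptor SIGLEC10 on macrophages. Breast cancer cells with high CD44 and low CD24 on their surface are commonly taken as stem-like, so a low level of CD24 and a low level of SOX9 are usually read in opposite ways.

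The values are log2 signals after robust multi-array averaging (RMA). Array medians lay between 2.43 and 2.48, and pairs of arrays correlated over features (Pearson's r, with features not independent of each other) at 0.981 to 0.989 within groups and 0.977 to 0.986 between groups. The number of arrays limits the precision. Nothing in the labels says that a group's samples came from different cultures, and every error and p-value here therefore covers sample-to-sample spread that may be only technical. Of 7 measured mesenchymal markers, 5 or 6 read more than 1 log2 unit above the array median on each array, against 2 of 10 luminal epithelial markers and 0 of 2 endothelial and 0 of 2 fibroblast markers. Of the 2 measured blood cell markers, CD68 read 6.19 to 6.84 and MPO did not reach 1 unit above the median. Mimic arrays averaged 5.89 to 5.99 over the mesenchymal markers, negative control arrays 6.17 to 6.33 and mock arrays 6.41 to 6.53, and the part this has in the results for SOX9 and CD24 was not tested. The 7 did not all move alike, since 3 had higher means in mimic than in negative control arrays.

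SOX9, on chromosome 17 at 72121020 to 72126416 of GRCh38.p14, was lowest in the mimic arrays. It read 6.13, 6.64 and 6.55 on mimic arrays 1 to 3, 7.37, 6.98 and 7.55 on negative control arrays 1 to 3, and 6.84, 7.06 and 6.84 on mock arrays 1 to 3. The means were 6.44 ± 0.28 in mimic, 7.30 ± 0.30 in negative control and 6.91 ± 0.13 in mock arrays (SD, n = 3 each). All 3 mimic arrays lay below all 6 control arrays, while negative control array 2 lay among the mock arrays and the other two negative control arrays lay above them. The feature was brighter than 89.6% to 96.3% of the features on its array, 3.70 to 5.09 log2 units above the array median, so its values stood clear of the low end of the scale.

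CD24, on chromosome 6 at 106969831 to 106976855, was also lowest in the mimic arrays, and its groups formed 3 separate steps. It read 8.38, 7.98 and 8.39 on mimic arrays 1 to 3, 8.82, 9.25 and 9.02 on negative control arrays 1 to 3, and 9.47, 9.50 and 9.59 on mock arrays 1 to 3. The means were 8.25 ± 0.23 in mimic, 9.03 ± 0.21 in negative control and 9.52 ± 0.062 in mock arrays (SD, n = 3 each). No array of one group overlapped another group. The feature lay above 97.1% of the others on each array.

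**Figure D1:**
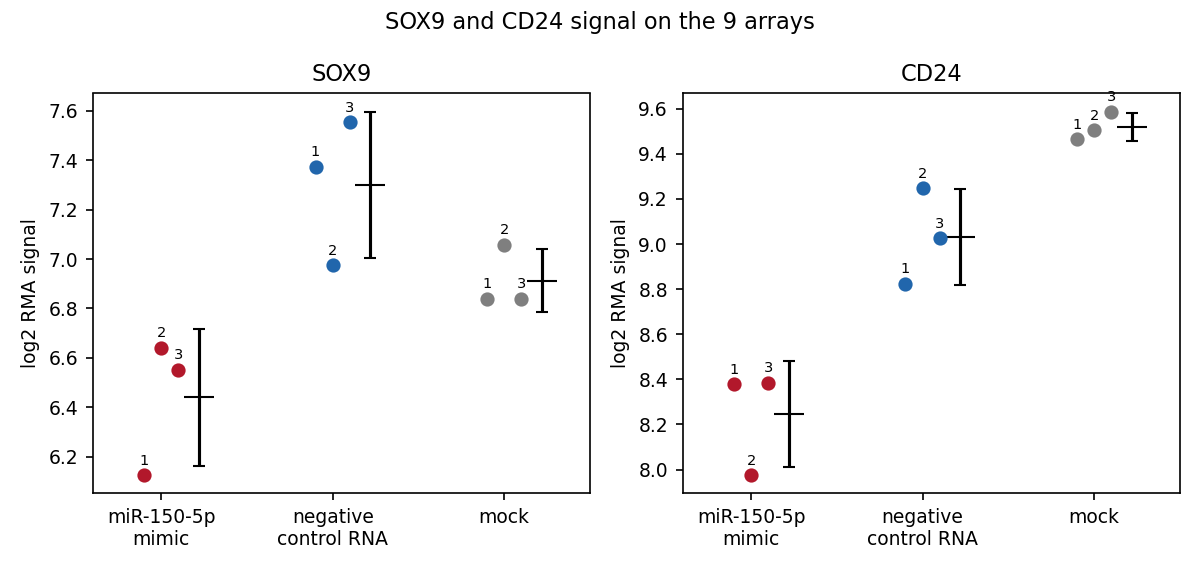
Log2 RMA signal (vertical axis) of SOX9 and of CD24 on the 3 arrays of each group, with replicate numbers beside the points and black bars for mean ± SD (the axes do not start at 0). SOX9 was highest in the negative control (mean 7.30) and CD24 in mock (mean 9.52), and both were lowest in the mimic arrays.

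Against the negative control, SOX9 differed in the mimic arrays by -0.86 ± 0.17 on the log2 scale (limma SE, n = 3 per group), which is 1.82-fold lower, and CD24 by -0.79 ± 0.14, which is 1.72-fold lower. The gap between the highest mimic array and the lowest negative control array was 0.33 log2 units for SOX9 and 0.44 for CD24. Both genes were without overlap in the lower direction, as were 8.3% of all genes tested, while 10.3% were without overlap in the higher direction (18.6% in all). Since values of this comparison chose the genes, nothing is read from that count. Whether a smaller signal came from fewer cells carrying the RNA or from less RNA per cell cannot be told apart in total RNA. Counted from the lowest difference of the 14884 genes, SOX9 stood at rank 69 and CD24 at rank 92.

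Against mock, the order of the pair was the reverse. CD24 differed in the mimic arrays by -1.27 ± 0.14 (2.41-fold lower, n = 3 per group) and stood at rank 24 from the lowest of the 14884 genes, with a gap of 1.08 log2 units between the groups. SOX9 differed by -0.47 ± 0.17 (1.39-fold lower) at rank 461, with a gap of 0.20 that was smaller than the SD of 0.28 among the mimic arrays. Both were again without overlap in the lower direction, as were 8.52% of all genes tested (11.7% in the higher direction, 20.2% in all). This comparison shares the mimic arrays with the one that chose the members, so it is no independent test of them.

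The negative control RNA by itself went with opposite differences from mock in the pair. CD24 differed by -0.49 ± 0.14 in negative control against mock arrays (1.40-fold lower, n = 3 per group), with a gap of 0.22 between the groups, where 5.78% of all genes were without overlap in the lower direction, 6.21% in the higher and 12% in all. SOX9 differed by 0.39 ± 0.17 (1.31-fold higher) with overlapping arrays. Negative control against mock shares the negative control arrays with the comparison that chose the members, so it is no independent test of them. With mock array 2 and negative control array 2 left out together, a choice made after seeing the data, the SOX9 difference was 0.63 ± 0.17. For SOX9 those were the highest mock array (7.06) and the lowest negative control array (6.98). Leaving them out could only widen the difference, so nothing is read from it. In order of level, SOX9 thus ran mimic, mock, negative control, with the upper neighbours overlapping, and CD24 ran mimic, negative control, mock, with no neighbours overlapping.

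The arrays did not order the pair alike within groups. Among the mimic arrays, SOX9 was lowest on array 1, at -0.76 from its mean over the 9 arrays, and CD24 on array 2, at -0.96. Among the negative control arrays, array 2 had the lowest SOX9 and the highest CD24 of its group. Mock arrays 1 and 3 had the same SOX9 value, and the mock arrays had the smallest SD of the groups for both genes. The root mean square difference between the pair, after each was centred on its own mean over the 9 arrays, was 0.51 log2 units, beside root mean square deviations from their own means of 0.40 for SOX9 and 0.55 for CD24. At that distance CD24 stood at rank 11932 among the genes ordered by likeness to SOX9, and SOX9 at rank 2697 among those ordered by likeness to CD24, so the rank differed with the gene it was counted from. A gene with no variation would lie 0.40 from SOX9 and 0.55 from CD24. Unvarying genes therefore come before CD24 in the first order and after SOX9 in the second.

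**Figure D2:**
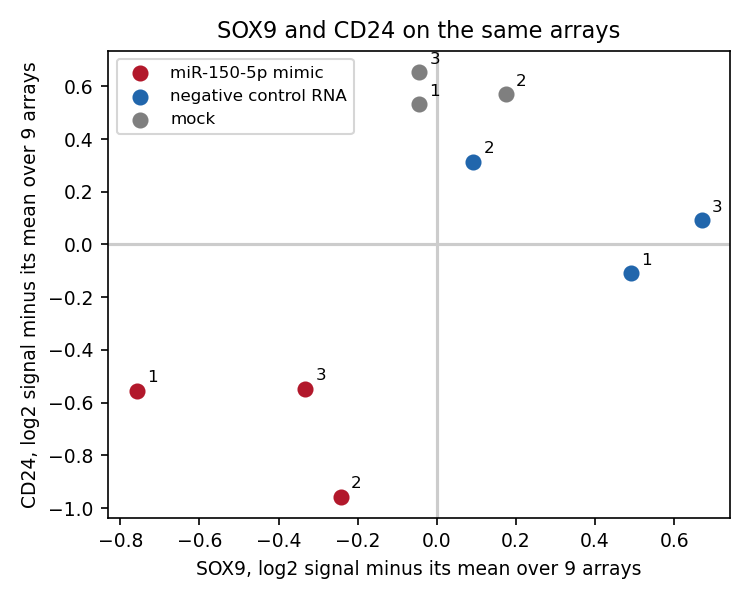
SOX9 (horizontal axis) against CD24 (vertical axis) on the same 9 arrays, each as log2 signal minus the gene's mean over the 9 arrays, with replicate numbers beside the points. The 3 mimic arrays lie low on both axes, while mock arrays are highest on CD24 and 2 of the negative control arrays are highest on SOX9.

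Genes with the most similar course over the 9 arrays were named by the same root mean square difference, and since they were picked for likeness they carry no test. Closest to SOX9 were PER1, of the circadian clock, at 0.13 log2 units, CNTNAP3, a cell recognition protein, at 0.13, and BCOR, a corepressor of BCL6, at 0.14, followed by SEPTIN9, PTMS and PTBP3 at 0.16 to 0.17. PER1 averaged 4.34 in mimic, 4.99 in negative control and 4.70 in mock arrays, and BCOR 4.23, 5.00 and 4.63 in the same order. All 6 had their highest mean in the negative control arrays, as SOX9 did.

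Closest to CD24 were ZNF25, a zinc finger gene, at 0.17 log2 units, ACSL4, which activates long-chain fatty acids, at 0.18, and CA4, a GPI-anchored carbonic anhydrase, at 0.21. PTGFR, the prostaglandin F receptor, CHRDL1, an antagonist of bone morphogenetic proteins, and CTSL, the lysosomal protease cathepsin L, followed at 0.21 to 0.23. ZNF25 averaged 4.50 in mimic, 5.27 in negative control and 5.81 in mock arrays, and ACSL4 7.40, 8.27 and 8.54 in the same order. All 6 ran in the order of CD24, with the mimic lowest and mock highest.

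**Figure D3:**
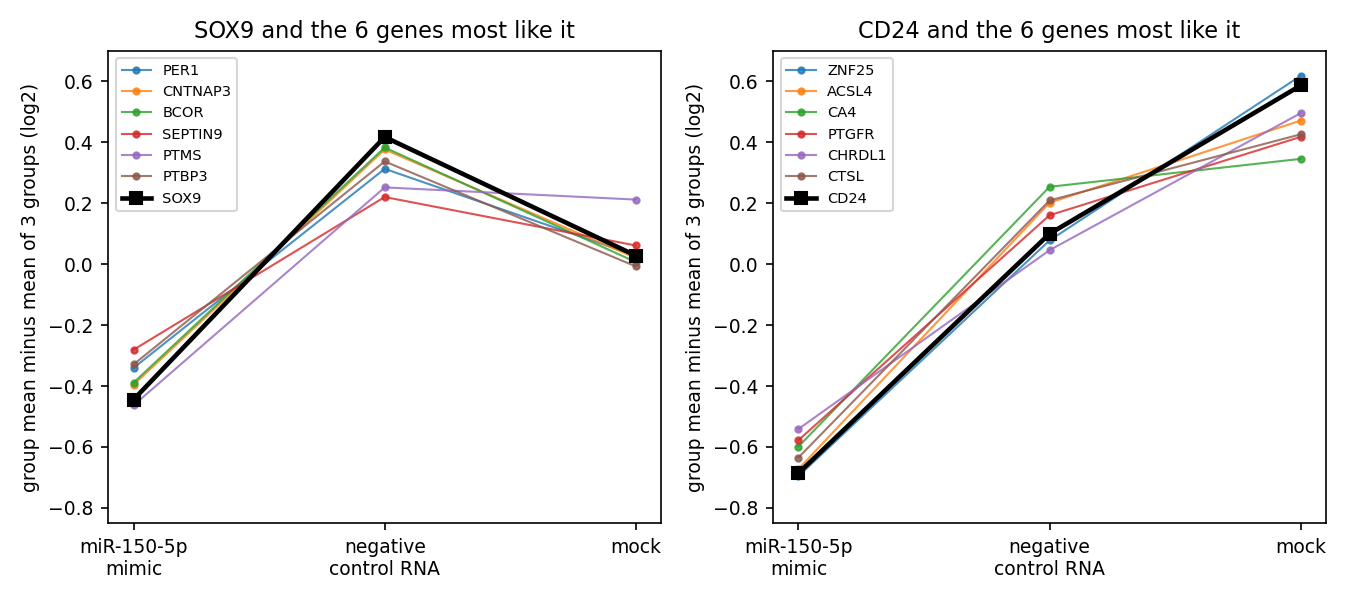
Group means of SOX9 and of CD24 (black squares) and of the 6 genes most like each (coloured points), as log2 signal minus the mean of the 3 groups. The SOX9 set peaks in the negative control and the CD24 set in mock, and both are lowest in the mimic group.

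The genes beside the pair on the chromosomes did not pass the test in any comparison. These were the 4 nearest measured genes of each member, MAP2K6, KCNJ2-AS1, LINC00673 and LINC00511 for SOX9 and QRSL1, MIR587, MTRES1 and BEND3 for CD24. By limma 0 of 8 passed in each comparison, and 2 of 8 had an unadjusted p under 0.05 for mimic against negative control. These were MTRES1, a mitochondrial RNA-binding protein, at -0.43 ± 0.11 (adjusted p = 0.064, n = 3 per group), and QRSL1, of mitochondrial transfer RNA charging, at 0.55 ± 0.18 (adjusted p = 0.14). The nearest measured gene to SOX9 started 282 kb away and the nearest measured gene to CD24 58.4 kb away (LINC00673 and MTRES1, GRCh38.p14). Genes that were not measured may lie closer.

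Upstream sequence of CD24 was searched because SOX proteins and the repressors SNAI2 and ZEB1 bind short known motifs. The start sites available here included 3 of CD24 on the minus strand of chromosome 6 (GRCh38.p14), at 106975627, 106975465 and 106974039. The 250 bases before each were searched on both strands. The outer end of the RefSeq gene span on that strand, 106976855, is none of these starts, and the sequence before it was not searched. The SOX motif ACAAAG occurred once before the second and once before the third start, and ACAATG before none. The E-box CAGGTG occurred once, before the third start. These are 30-base windows in 5′ to 3′ order with the motif in capitals:
CD24 at chr6:106975489-106975518, minus strand: ggcgctcacagaACAAAGcaagggcttcgg
CD24 at chr6:106974123-106974152, minus strand: cccgcgctctacACAAAGagaggcgacggt
CD24 at chr6:106974260-106974289, minus strand: cCAGGTGactacttcccactttcacccaga
The matches lie 41, 101 and 249 bases before their starts. ACAAAG is found before 13.7% of the 35116 starts in the table, ACAATG before 9.29% and CAGGTG before 17.5%, so a match is a description and not a binding site.

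Pathway and marker genes beyond the pair were tested by limma over all 14884 genes with Benjamini-Hochberg adjustment. At an adjusted p under 0.05, 3.18% of genes changed in mimic against negative control (262 or 1.76% rose and 211 or 1.42% fell), 3.9% in mimic against mock (339 or 2.28% rose and 241 or 1.62% fell) and 0.645% in negative control against mock (25 or 0.168% rose and 71 or 0.477% fell). Quantile-normalized once more, the arrays gave 176 rises and 289 falls, 231 rises and 287 falls, and 56 rises and 80 falls in the same order. The replicate block gave 61 genes in place of 96 for negative control against mock. Leaving out 1 array at a time gave 199 to 431, 188 to 650 and 21 to 112 genes for the 3 comparisons in the same order.

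The other SOX genes did not pass the test. Of 18 other SOX genes measured, 0 passed in any comparison, and 0, 2 and 0 had an unadjusted p under 0.05 for mimic against negative control, mimic against mock and negative control against mock. Their median difference was 0.0056 log2 units for mimic against negative control, where the median of all genes was -0.0044. Most of the 18 averaged less than 1 log2 unit above the array median or below it, so a median near 0 says little about them. SOX4, a progenitor factor often raised in tumours, averaged 6.91 ± 0.08 in mimic, 6.75 ± 0.21 in negative control and 6.79 ± 0.28 in mock arrays (SD, n = 3 each), a difference of 0.16 ± 0.15 for mimic against negative control (SE, adjusted p = 0.67). SOX2, of pluripotent cells, averaged 2.01, 2.01 and 2.02, below the array medians. The largest differences among them were those of SOX12 (-0.66 ± 0.24, adjusted p = 0.19, n = 3 per group) and SOX13 (adjusted p = 0.083) in mimic against mock, both named after their values were seen.

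Genes that SOX9 is known to switch on in cartilage did not pass either. Of 9 measured among 18 listed, 0 passed in any comparison, with 1 at an unadjusted p under 0.05 in each, and a median of 0.0030 for mimic against negative control. ACAN, which encodes aggrecan, averaged 2.31 in mimic, 2.28 in negative control and 2.06 in mock arrays, and COMP, a cartilage matrix protein, 3.02, 2.97 and 3.06, all within 1 log2 unit of the array median. Of 7 measured cofactors and turnover genes of SOX9, which include the coactivators EP300 and CREBBP and the kinase GSK3B, 0 passed in any comparison (1, 3 and 1 at an unadjusted p under 0.05 in the order above).

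In signalling pathways that act on SOX9 in development, single genes changed. Of 13 Hedgehog pathway genes, 0 passed for mimic against negative control (4 at an unadjusted p under 0.05), 2 fell and 0 rose for mimic against mock, and 1 fell for negative control against mock. The median of this list was -0.15 for mimic against negative control and -0.22 for mimic against mock, with 12 and 10 of 13 below 0. Most of the 13 averaged less than 1 log2 unit above the array median or below it, so these medians and counts say little about the pathway. CDON, a Hedgehog co-receptor, read 4.40, 4.42 and 4.13 on mimic arrays 1 to 3, 5.03, 4.70 and 4.87 on negative control arrays 1 to 3, and 5.74, 5.52 and 6.12 on mock arrays 1 to 3. Its 3 groups did not overlap, and it ran in the order of CD24. It fell by 1.47 on the log2 scale in mimic against mock (SE 0.16, adjusted p = 0.0016, n = 3 per group) and by 0.92 in negative control against mock (adjusted p = 0.034, up to 0.14 without any array except mock 2, and adjusted p = 0.081 with the replicate block). GAS1, another co-receptor, fell by 0.42 in mimic against mock (adjusted p = 0.048, n = 3 per group, up to 0.16 without any array except mock 2 and negative control 2, and adjusted p = 0.060 with the arrays centred on their medians).

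Of 17 Wnt pathway genes, 1 rose for mimic against negative control, 1 fell for mimic against mock and 0 passed for negative control against mock (1 at an unadjusted p under 0.05). DKK1, a secreted Wnt inhibitor, rose by 0.97 ± 0.18 in mimic against negative control (adjusted p = 0.022, n = 3 per group, rising as far as 0.091 if negative control 3 or 1 of the mimic arrays was dropped). It read 7.10, 6.76 and 6.86 on mimic, 5.54, 6.36 and 5.90 on negative control and 6.66, 6.70 and 6.79 on mock arrays, so the negative control stood low while mimic and mock overlapped. SFRP1, also a secreted Wnt inhibitor, fell by 0.61 in mimic against mock (adjusted p = 0.046, n = 3 per group, rising as far as 0.16 if mock 1 or 3, negative control 3 or 1 of the mimic arrays was dropped, and adjusted p = 0.051 with the arrays centred on their medians).

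Of 15 Hippo pathway genes, 1 fell in each comparison and 0 rose. SAV1, a scaffold of the Hippo kinases, fell by 0.49 in mimic against negative control (adjusted p = 0.032, n = 3 per group, rising as far as 0.11 if mock 1, negative control 1 or 2, or 1 of the mimic arrays was dropped). CCN2, a secreted matrix protein induced by YAP1, fell by 0.76 in mimic against mock (adjusted p = 0.0081, n = 3 per group) and by 0.92 in negative control against mock (adjusted p = 0.0095, and 0.064 without mock 2 and negative control 2 together). The dimmer of the 2 features of CCN2 gave -1.45 and -1.76 for the same comparisons.

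CD24 was set beside other proteins held by a GPI anchor. Of 34 measured besides CD24, 2 rose and 1 fell for mimic against negative control, 1 rose and 1 fell for mimic against mock, and 1 fell for negative control against mock, with medians of 0.020, -0.0048 and -0.0032. The list does not hold every GPI-anchored protein. CA4, named above for its likeness to CD24, is not in it or in these counts. CD109, which binds TGF-beta, read 6.09, 6.05 and 5.82 on mimic arrays, 7.59, 7.54 and 7.74 on negative control arrays and 8.26, 7.99 and 8.15 on mock arrays. It had the same order of groups as CD24, with no overlap. Its difference was -1.63 ± 0.11 for mimic against negative control (adjusted p = 0.00026, n = 3 per group), and its dimmer feature gave -0.23.

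TFPI, an inhibitor of blood coagulation with a GPI-anchored form, went the other way. It rose by 0.98 ± 0.11 in mimic against negative control (adjusted p = 0.0028, n = 3 per group) and by 1.20 ± 0.11 in mimic against mock (adjusted p = 0.0011). GFRA1, a receptor part for GDNF, averaged 5.11 in mimic, 4.43 in negative control and 5.30 in mock arrays. It rose in mimic against negative control (adjusted p = 0.046, n = 3 per group, up to 0.15 without any array except negative control 3, and 0.078 quantile-normalized once more). It fell in negative control against mock (adjusted p = 0.041, n = 3 per group, up to 0.18 with 1 array left out, no matter which, and adjusted p = 0.11 with the replicate block). Of 7 measured genes that assemble or trim the anchor, among them GPAA1 and PGAP1, 0 passed in any comparison (2, 4 and 1 at an unadjusted p under 0.05 in the order above).

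Of 9 measured partners and signalling proteins of CD24, 1 rose for mimic against mock and 0 passed in the other comparisons (3 at an unadjusted p under 0.05 for mimic against negative control and 1 for negative control against mock). The gene that rose was HMGB1, a chromatin protein that CD24 binds once released, at 0.64 ± 0.15 (adjusted p = 0.046, n = 3 per group, rising as far as 0.16 if mock 1 or 2, negative control 2 or 3, or 1 of the mimic arrays was dropped). SIGLEC10, the macrophage receptor of CD24, read near the array median, at 2.72 ± 0.27 in mimic, 2.71 ± 0.04 in negative control and 2.86 ± 0.09 in mock arrays (SD, n = 3 each). Of 14 genes for the sialylated sugar chains of CD24, 1 was measured, C1GALT1C1, a chaperone of O-glycan synthesis, and it passed in no comparison (-0.33 for mimic against negative control, adjusted p = 0.12, n = 3 per group, and an unadjusted p under 0.05 in that comparison only).

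CD24 is one of several signals that restrain or invite uptake by macrophages. Of 8 others measured, 1 fell for mimic against negative control, 2 fell for mimic against mock and 1 fell for negative control against mock, and 0 rose. CD47, the best known of these signals, averaged 8.01 in mimic, 8.13 in negative control and 8.20 in mock arrays, a difference of -0.12 for mimic against negative control (adjusted p = 0.65, n = 3 per group). STC1, a secreted glycoprotein that holds back calreticulin, read 7.29, 7.51 and 7.27 on mimic, 7.97, 8.20 and 8.16 on negative control and 8.12, 7.97 and 8.33 on mock arrays. It fell by 0.76 (adjusted p = 0.0096, n = 3 per group) against the negative control and by 0.78 (adjusted p = 0.0080) against mock. CD274, which encodes PD-L1, averaged 4.55 in mimic, 4.23 in negative control and 5.75 in mock arrays, and fell by 1.21 in mimic against mock (adjusted p = 0.0027, n = 3 per group) and by 1.52 in negative control against mock (adjusted p = 0.0025).

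Among other breast stem and progenitor markers, SNAI2 changed. Of 15 measured besides the pair, 1 fell and 0 rose for mimic against negative control and for mimic against mock, and 0 passed for negative control against mock (1 at an unadjusted p under 0.05 there, which was SNAI2, with an adjusted p of 0.40). The medians were -0.12, -0.050 and 0.017, with 12, 11 and 7 of 15 below 0. Most of the 15 averaged less than 1 log2 unit above the array median or below it, so these medians and counts say little. The list overlaps one that earlier results of these arrays already showed as low in the mimic, so this is not independent of them. SNAI2, a repressor of epithelial genes that acts with SOX9 in mammary stem cells, read 5.53, 5.73 and 5.79 on mimic, 6.89, 6.88 and 7.36 on negative control and 7.43, 7.26 and 7.50 on mock arrays. It fell by 1.36 (adjusted p = 0.0018, n = 3 per group) against the negative control and by 1.71 (adjusted p = 0.00057) against mock.

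CD44, the hyaluronan receptor whose ratio to CD24 defines stem-like breast cancer cells, read 7.04, 7.16 and 7.02 on mimic arrays, 7.33, 7.33 and 7.52 on negative control arrays and 7.44, 7.32 and 7.54 on mock arrays. The mimic arrays lay below the 6 control arrays, but the differences of -0.32 ± 0.092 against the negative control (adjusted p = 0.11, n = 3 per group) and -0.36 ± 0.092 against mock (adjusted p = 0.064) did not pass. MYC, a growth-promoting transcription factor, differed by 0.45 in mimic against negative control (adjusted p = 0.24, n = 3 per group), and LGR4, a receptor that strengthens Wnt signals, by 0.27 (adjusted p = 0.47), and these were the largest upward differences in the list. PROM1, EPCAM, NANOG, LGR5 and KIT averaged below the array medians in all 3 groups and passed in no comparison.

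**Figure D4:**
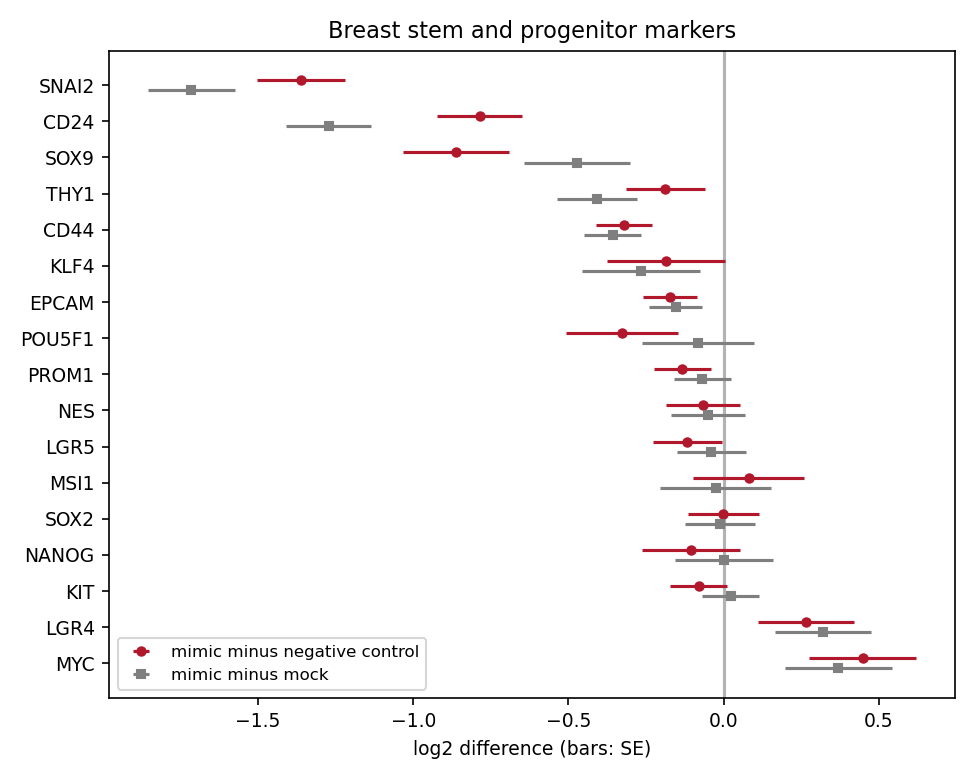
Log2 difference (horizontal axis, bars are the limma SE) of SOX9, CD24 and the other 15 measured breast stem and progenitor markers, for mimic minus negative control (circles) and mimic minus mock (squares), 3 arrays per group. SNAI2, CD24 and SOX9 lie farthest to the left, CD24 farther from mock and SOX9 farther from the negative control.

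Lineage markers were read because CD24 is itself more abundant in luminal than in basal breast cells. Of 10 luminal epithelial markers, 0 passed in any comparison, and the median was -0.14 for mimic against negative control and -0.059 for mimic against mock. Most of the 10 averaged less than 1 log2 unit above the array median or below it, so these medians say little. KRT18, a luminal keratin, averaged 7.42 in mimic, 7.73 in negative control and 7.48 in mock arrays, and differed by -0.30 in mimic against negative control (adjusted p = 0.22, n = 3 per group). Of 3 basal or myoepithelial markers, 1 fell against each control, OXTR, the oxytocin receptor, by 0.94 (adjusted p = 0.027, n = 3 per group, up to 0.095 without mock 1, any negative control array, or mimic 2 or 3) against the negative control with -1.07 (adjusted p = 0.014, 0.053 at most when mock 1, mimic 2 or mimic 3 was left out) against mock. Of 7 mesenchymal markers, 3 fell against each control and 0 rose. These were SNAI2, TWIST1 (-0.61 against the negative control, 0.054 at most as adjusted p when mimic 1 or 3 was left out, and -0.78 against mock) and ZEB1 (-0.36, adjusted p up to 0.11 without any array except negative control 2, and -0.58). By their means 3 of the 7 were higher in mimic than in negative control arrays, VIM by 0.097, FN1 by 0.21 and ZEB2 by 0.021. Against mock 1 of the 7 was higher, and none of these differences passed. SNAI2 was also counted among the stem and progenitor markers. The lineage lists were chosen with earlier results of these data known, so their falls are not independent of those results.

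MIR150, from which cells make their own copy of the microRNA, averaged 2.62 ± 0.44 in mimic, 2.80 ± 0.22 in negative control and 2.71 ± 0.12 in mock arrays (SD, n = 3 each). Because the mimic was added as a mature microRNA, this feature checks nothing about the labels.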

How the data were processed

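Total RNA from 9 BT-549 samples, 3 per group by the labels, was hybridised to Human Gene 2.0 ST arrays from Affymetrix. RNA was labelled with a FlashTag biotin kit, per the labels' protocols. The deposited values are log2 signals that the authors made with RMA, per the submitters' processing notes. RMA corrects background, equalises the arrays and sums the probes of a feature; no version is stated for it. Of 53617 features, 16098 had 1 symbol in the platform annotation, 37519 had none here, and all 16098 gene IDs matched RefSeq (GRCh38.p14). The feature with the highest mean over 9 arrays stood for each of 14884 genes. Differences and SE came from lmFit and eBayes of limma 3.58.1, run under R 4.3.3 (1 mean per group, 6 residual and 9.6 total degrees of freedom), two-sided, with Benjamini-Hochberg adjustment over all genes and a threshold of 0.05. No filter on signal was used. The fit was tested on simulated data.

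The members and gene lists were chosen with earlier results of these data known. Named genes were the members, up to 4 changed genes per list, CD44, SNAI2, SIGLEC10, SOX4, SOX2 and MIR150, the 6 genes most like each member and the 2 nearest measured genes on each side. MicroRNA, small nucleolar and uncharacterised loci were left out of the likeness ranking. Other genes named are examples chosen after their values were seen. Deviations from group means correlated between same-numbered negative control and mock arrays (r = 0.15, 0.23 and 0.15 for arrays 1 to 3). For differently numbered arrays of those groups r was -0.16 to 0.022. The numbers may thus pair those samples, a reading of the data and not of the labels. For mimic arrays the same-number correlation was -0.29 to -0.054. Negative control 2 and mimic 1, with different numbers, reached 0.24, so an r of this size does not establish a pairing. The main fit paired no samples, while the replicate block gave every array, mimic arrays included, a term for its number.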

Additional observations from a re-analysis of the deposited data

How the results depend on the processing

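The 6 differences of SOX9 and CD24 kept their sign under every alternative run that gave them a value. The mean of all features of a gene could not change them, since each gene was read by 1 feature. Nor could the replicate block, since each group held every replicate number once. Some runs, such as the fits on 6 arrays and the trend with robust variance, were not read for the pair. With 1 array left out, SOX9 ranged from -1.02 to -0.70 for mimic against negative control, from -0.57 to -0.32 for mimic against mock and from 0.26 to 0.55 for negative control against mock. CD24 ranged from -0.89 to -0.65, from -1.34 to -1.14 and from -0.59 to -0.38 in the same order. Quantile-normalized once more, SOX9 gave -0.96, -0.55 and 0.41 and CD24 -0.84, -1.37 and -0.52. The replicate block left these differences as they were, with SE of 0.18 for SOX9 and 0.15 for CD24. Counts of changed genes moved more. With 1 array left out they ranged from 199 to 431 for mimic against negative control (more than 1.5 times fewer without mock 1, negative control 1 or 3, or any mimic array), from 188 to 650 for mimic against mock (more than 1.5 times fewer without mock 1 or 2, or any mimic array) and from 21 to 112 for negative control against mock (more than 1.5 times fewer without mock 1 or 3, any negative control array, or mimic 3). Fits on the 6 arrays compared alone gave 251, 321 and 18 genes, and the replicate block 292, 346 and 61. For mimic against mock, all features with or without a symbol gave 329 and array weights 904. Without mock 2 and negative control 2 together, added after seeing the data, negative control against mock gave 28. Of 27 calls of listed genes, the replicate block kept 18, the fits on 6 arrays 16, the trend with robust variance 22, the centring on medians 25 and the second quantile normalization 26, and 0 reversed under any alternative. Whether the numbers pair the mimic arrays with the others is not known, so the calls lost under the block are not set aside. Under the block the limma adjusted p was 0.0522 (DKK1), 0.102 (GFRA1), 0.074 (SAV1) and 0.0786 (ZEB1) in mimic against negative control. For mimic against mock it was 0.0699 (GAS1), 0.0755 (HMGB1) and 0.0629 (SFRP1). With 3 arrays per group the number of arrays limits the precision.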

Other observations

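SOX9 read exactly the same, 6.83856, on mock arrays 1 and 3. Of the 53617 features, 3249 (6.06%) had equal values to 5 decimals on those 2 arrays, and over all 36 pairs of arrays the share was 4.78% to 6.58%. SOX11 read 3.73862 on all 3 mock arrays and on negative control arrays 1 and 3, so its SD among the mock arrays was 0.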
